A study of Danio rerio with 2 samples.

Results

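The hairy-related repressors that are not core genes of the segmentation clock were examined in sorted zebrafish cells: hey1, hey2, heyl, her6, her8a, her9 and her12. They were found by the protein name that the files pair with each transcript, and the reads of all transcripts of a gene were summed. These 7 genes were among 22017 genes with a read in either library, and 6 of them had at least 10 reads over both libraries. The clock genes her1 and her7 were left out of the group and serve as a comparison. The Ensembl genes are ENSDARG00000070538 (hey1), ENSDARG00000013441 (hey2), ENSDARG00000055798 (heyl), ENSDARG00000006514 (her6), ENSDARG00000016363 (her8a), ENSDARG00000056438 (her9) and ENSDARG00000032963 (her12). Some proteins are named differently in the files: her6 appears as transcription factor HES-1, her8a as Her-8b, and hey2 under a clone name that RefSeq lists as its synonym.

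The proteins of this family are basic helix-loop-helix transcription factors that repress their targets, and many of them are direct targets of Notch signalling. A Notch ligand on 1 cell releases the intracellular part of the Notch receptor in its neighbour, which joins the DNA-binding protein Rbpj and activates hes, her and hey genes. Hes and her proteins end in a short motif that recruits Groucho corepressors, whereas hey proteins carry a related YRPW motif in place of it. In zebrafish, hey2 was identified through the gridlock mutant, in which blood flow through the aorta is blocked, and her6 and her9 are known for keeping neural progenitors undifferentiated.

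RNA was sequenced from dissociated embryos of the line Tg(fli1a:EGFP)y1, aged 22 to 24 hpf, after sorting for green fluorescence. The promoter of the ETS factor gene fli1a drives EGFP in endothelium, and also in some blood and pharyngeal arch cells. GFP+ cells, labelled endothelial, and GFP- cells, labelled non-endothelial, gave 1 library each, so no difference has a replicate check. Both groups carry the transgene and neither is labelled with a treatment, and the number of embryos or of sorted cells is not given in the sources used here.

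The GFP+ library held 4441335 reads counted on transcripts and the GFP- library 4105672. In RPM (reads per 1000000 counted reads of the library), 3 reads, taken as the floor of detection, equal 0.675 in GFP+ and 0.731 in GFP- cells. The sort was checked with kdrl, the VEGF receptor gene that marks endothelium, with 2640 GFP+ reads and 71 GFP- reads, 34.1-fold higher in GFP+ cells. All 9 endothelial markers with at least 10 reads were more than 2-fold higher in GFP+ cells, although cdh5 (5 and 0 reads) and tek (7 and 0 reads) were hardly detected. All 8 blood markers were higher too, and hemoglobin transcripts took 6.24% of the GFP+ reads against 0.0523% of the GFP- reads, so the GFP+ library also held RNA of blood cells.

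Between the libraries, hey2 stood apart from the other repressors. It was 2.0-fold higher in GFP+ cells, on the threshold of a 2-fold change, while hey1, her6, her9, her12 and her8a were 1.39-fold to 3.92-fold lower. Genes with at least 10 reads in all were called higher where the log2 ratio of RPM, with 0.5 reads added, was above 1, and lower where it was under -1. By this rule 3 of the 6 genes were lower (her8a, her9 and her12), against 17.6% of all 15252 genes tested. Under edgeR's exact test, which assumes a spread between replicates, 0 of the 6 were called lower, against 94 of all 15252 genes. None of the 6 was called higher, against 16.2% of all genes. The median log2 ratio of the 6 genes was -1.02, and that of all genes was -0.11. Summed over the 7 genes, the GFP+ library held 5051 reads (1137 RPM) and the GFP- library 7367 (1794 RPM). In such bulk samples, fewer cells of a type and less RNA per cell cannot be told apart.

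**Figure D1:**
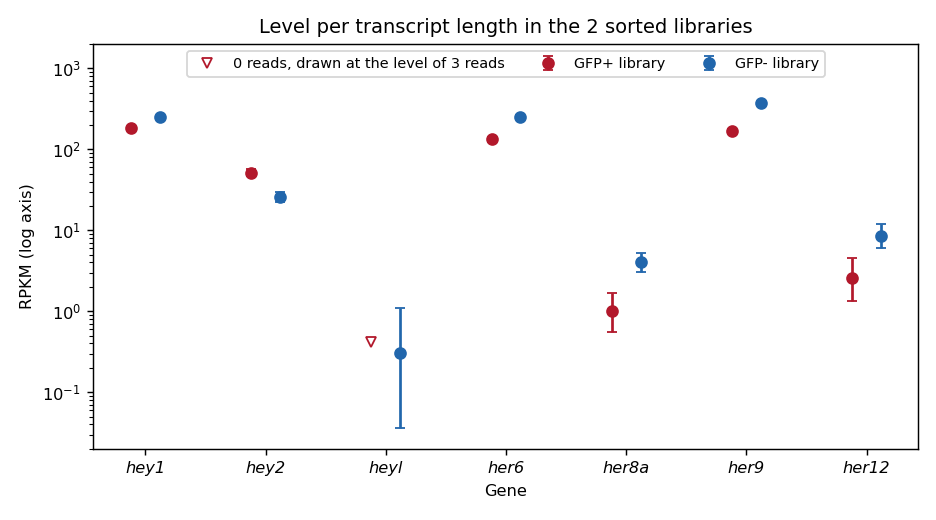
RPKM (RPM per kilobase of transcript, log axis) of the 7 repressor genes in the GFP+ library (red) and the GFP- library (blue), with exact Poisson 95% intervals of the reads. hey2 is the only gene with its filled red point above the blue, at 51.4 against 25.7, and heyl, with 0 reads in GFP+ cells, is drawn there as an open triangle at the level of 3 reads.

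Among the hey genes, hey1 was the most read. Its counts were 2669 GFP+ reads (601 RPM, RPKM 181) and 3428 GFP- reads (835 RPM, RPKM 251). It was thus read deeply in both populations and somewhat less in GFP+ cells, with a log2 ratio of -0.47 (exact Clopper-Pearson 95% interval -0.55 to -0.40). These intervals, here and below, cover counting error only. The ratio lay within the middle of the distribution, with 33.8% of all genes lower. Relative to the median of all genes the log2 ratio of hey1 was -0.36.

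For hey2, the GFP+ library held 433 reads (97.5 RPM, RPKM 51.4) and the GFP- library 200 reads (48.7 RPM, RPKM 25.7). Its log2 ratio of 1.00 had a 95% interval of 0.76 to 1.25, which holds the threshold, and 83.8% of all genes had a lower ratio. Before rounding the value was just under 1. It was above 1 with the libraries scaled by TMM (trimmed mean of M values) or by size factors. The same held with totals that leave out hemoglobin reads and in the ratio of the deposited RPKM. With 5 reads added it was 0.98, and edgeR's exact test, which assumes a spread between replicates, did not call hey2 higher. The difference was small beside that of the endothelial markers, whose median log2 ratio was 5.09, and hey2 was still detected in GFP- cells. Among the arterial markers, a list of 6 measured genes that includes hey2, 2 were called higher: flt1, a VEGF receptor gene (557 and 5 reads), and dll4, a Notch ligand gene (2285 and 64 reads). The ephrin gene efnb2a (1686 and 1543 reads), notch3 (2858 and 2950 reads) and the T-box gene tbx20 (71 and 85 reads) from the same list were called neither. In a list of 8 venous markers 6 were called higher, with a median log2 ratio of 5.02 against 0.51 for the arterial list. The arterial median is the midpoint between efnb2a (log2 ratio 0.01) and hey2 itself, so it is not independent of hey2. The 2 venous markers called neither were ephb4a (74 and 67 reads, log2 ratio 0.03) and nr2f2 (9 and 15 reads, -0.82).

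The remaining hey gene, heyl, had 0 GFP+ reads and 2 GFP- reads. Both are under the floor of 3 reads, which for this transcript corresponds to an RPKM of 0.417 in GFP+ cells, so that no fold is given and a difference was not detectable at this depth.

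Of the her genes, her9 was the most read, with 1092 GFP+ reads (246 RPM, RPKM 169) and 2194 GFP- reads (534 RPM, RPKM 368). It was 2.17-fold lower in GFP+ cells (log2 ratio -1.12, 95% interval -1.23 to -1.01). With TMM scaling, size factors and totals without hemoglobin reads the log2 ratio of her9 was -1.02, -1.01 and -1.03, only just past the threshold. For her6, an orthologue of mammalian Hes1, the counts were 831 reads (187 RPM, RPKM 134) and 1454 reads (354 RPM, RPKM 252). This was 1.89-fold lower (log2 ratio -0.92, 95% interval -1.05 to -0.80), just short of the threshold. Both genes were among the more highly read in the GFP+ library too. Of the genes with a read there, 98.0% had a lower RPKM than her9 and 97.3% a lower RPKM than her6.

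The remaining pair of her genes was scarce. Only 14 GFP+ reads of her8a (3.15 RPM) and 52 GFP- reads (12.7 RPM) were counted, a 3.92-fold lower level (log2 ratio -1.97, 95% interval -2.97 to -1.13). For her12, which is also expressed in the presomitic mesoderm, 12 reads (2.70 RPM) and 37 reads (9.01 RPM) gave a 3.25-fold lower level (log2 ratio -1.70, 95% interval -2.81 to -0.77). The interval of her12 reaches past the threshold of -1, so that a change of less than 2-fold is within its counting error. Of all genes, 5.0% had a lower ratio than her8a and 7.18% a lower ratio than her12.

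**Figure D2:**
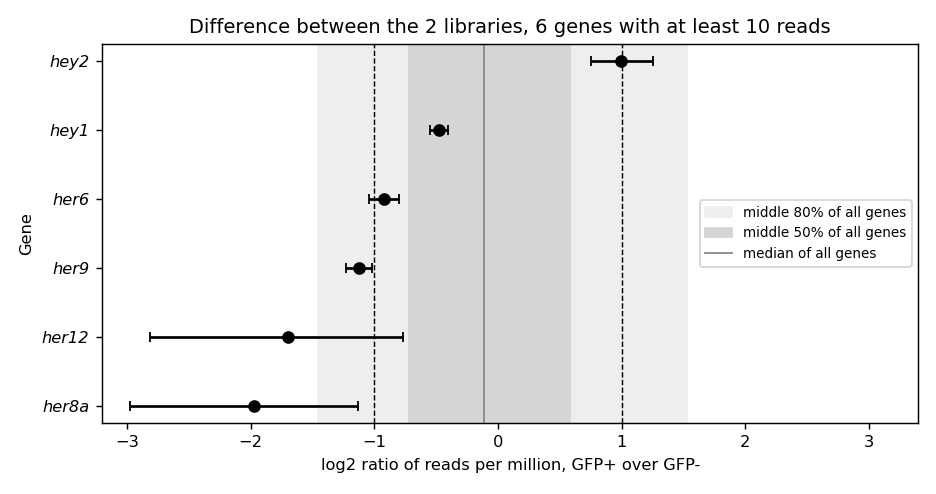
Log2 ratio of RPM, GFP+ over GFP-, for the 6 genes with at least 10 reads, with exact 95% intervals for counting error. Grey bands run from -0.72 to 0.59 (quartiles of all genes) and from -1.45 to 1.53 (10th and 90th percentiles), the dashed lines mark a 2-fold difference, and hey2 alone lies to the right of 0.

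In levels per transcript length, the order differed between the populations. In GFP+ cells the highest RPKM was that of hey1, followed by her9, her6, hey2, her12, her8a and heyl. The Poisson intervals of hey1 (174 to 188) and her9 (160 to 180) overlapped there, as did those of her12 (1.33 to 4.49) and her8a (0.55 to 1.69). In GFP- cells her9 came first with an interval of 353 to 384. It was followed by her6 (239 to 265) and hey1 (243 to 260), which overlapped, and then by hey2, her12, her8a and heyl. Within the reads of the 7 genes, hey1 took 52.8% in GFP+ cells (95% interval 51.5% to 54.2%) and 46.5% in GFP- cells (45.4% to 47.7%). The share of hey2 was 8.57% (7.81% to 9.38%) against 2.71% (2.36% to 3.11%), and that of her9 was 21.6% (20.5% to 22.8%) against 29.8% (28.7% to 30.8%). These shares count reads and, unlike RPKM, are not scaled to transcript length. The hey1 transcript has 3322 bases, against 1426 and 1461 in the main transcripts of her6 and her9, which raises its share of reads.

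The members were compared with one another by the odds ratio of their reads in the libraries, which does not depend on how the libraries are scaled. Of the 15 pairs among the 6 genes, 12 had an exact 95% interval that excluded 0 on the log2 scale. All 5 pairs with hey2 were among them. The log2 ratio of hey2 exceeded that of her6 by 1.92 (1.64 to 2.2), that of her9 by 2.12 (1.85 to 2.39) and that of her8a by 3.0 (2.09 to 4.0), and hey1 differed from hey2 by -1.48 (-1.74 to -1.22). The smallest separated difference was that of her6 over her9, at 0.20 (0.04 to 0.36). The 3 pairs whose interval held 0 all included her12: her6 minus her12 was 0.82 (-0.16 to 1.90), her9 minus her12 was 0.62 (-0.36 to 1.70) and her8a minus her12 was -0.27 (-1.66 to 1.15). These intervals carry no p-value and compare these libraries, not the conditions.

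Each gene was also examined by transcript on the assembly Zv9. hey1 has 1 transcript of 3322 bases on chromosome 19 (33042965 to 33047694, reverse strand), and its reads covered 98.5% of the length in GFP+ cells and 99.2% in GFP- cells. hey2 has 1 transcript of 1898 bases on chromosome 20 (39614524 to 39622047, reverse strand), covered to 91.5% and 89.7%. The hey1 and hey2 counts thus came from nearly the whole transcript. heyl lies on chromosome 19 as well (33929338 to 33936055, forward strand), 0.882 Mb from hey1.

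The her genes were covered in part only. The main transcript of her6 (chromosome 6, 36329655 to 36331416, reverse strand, 1426 bases), which held 98.0% of the reads of its 3 transcripts, was covered to 33.9% in GFP+ cells and 34.6% in GFP- cells. That of her9 (chromosome 23, 23693662 to 23695447, reverse strand, 1461 bases), with 99.1% of the reads of its 2 transcripts, was covered to 54.9% and 58.1%. With this many reads of 49 bases spread at random, the whole length would be covered. For transcripts read deeply enough that at least 99% would be covered at random, the median coverage in GFP+ cells was 94.3% for genes with 1 listed transcript and 58.4% for genes with 2 or more, to which her6 and her9 belong. In GFP- cells the medians were 93.9% and 55.9%. her9 therefore lay near the median of such genes and her6 below it.

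The scarce genes each have 1 listed transcript. For her8a (chromosome 7, 27555809 to 27562348, reverse strand, 3132 bases) the reads covered 4.47% and 8.49% of the length, where reads spread at random would cover 19.7% and 55.7%. For her12 (chromosome 23, 21739064 to 21741127, reverse strand, 1050 bases) they covered 8.10% and 8.86%, against 42.9% and 82.2%. The 12 and 37 reads of her12 thus rest on 85 and 93 bases, and the 14 and 52 reads of her8a on 140 and 266 bases. The intervals given for her8a and her12, and their calls as lower, count each read as independent. Whether reads stacked on so few bases are independent was not tested. The her4 copies, a tandem group of near-identical Notch target genes, begin 5.57 kb from her12 on the same chromosome, and her9 lies 1.95 Mb away. The authors counted uniquely mapped reads, and whether sequence shared between copies or transcripts kept reads out was not tested.

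**Figure D3:**
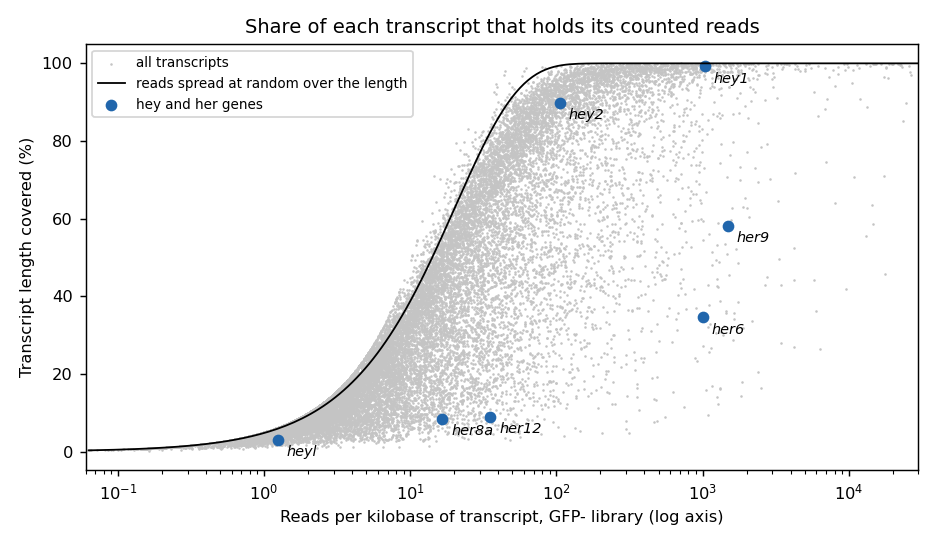
Percent of each transcript's length covered by reads in the GFP- library against its reads per kilobase (log axis), for all transcripts (grey) and the most-read transcript of each repressor gene (blue); the line is the coverage of reads spread at random. hey1 and hey2 lie near the top at 99.2% and 89.7%, while her6 (34.6%), her9 (58.1%), her12 (8.86%) and her8a (8.49%) lie well under the line.

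Scaling to the covered length changed the order of levels but not the direction of the differences. Where the covered share is alike in the libraries, this scaling cannot change the direction, so it does not test it. When the reads of the main transcript were divided by the covered length only, her6 came first in both libraries, with 377 RPM per covered kilobase in GFP+ cells and 706 in GFP- cells. It was followed by her9 (303 and 624) and hey1 (184 and 253). By this measure her12 (31.8 and 96.9) and her8a (22.5 and 47.6) came closer to hey2 (56.1 and 28.6), and in GFP- cells they exceeded it. With few reads, however, the covered length is limited by the reads themselves, which raises this measure for scarce genes. Even heyl, with 2 GFP- reads on 49 bases, reached 9.94 in GFP- cells against an RPKM of 0.30. The covered share was alike in the libraries for hey1, hey2, her6, her9 and her12, and for her8a it was lower in GFP+ cells.

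The other genes of the family were mostly lower in GFP+ cells. Of 18 further hes, her and hey-related genes with at least 10 reads, 15 were called lower and 0 higher, against 17.6% and 16.2% of all genes, with a median log2 ratio of -2.0. Under edgeR's exact test with an assumed spread, 2 of them were called lower, against 94 of all 15252 genes. The clock gene her1 had 53 GFP+ and 621 GFP- reads (log2 ratio -3.65, 95% interval -4.10 to -3.26), and her7 had 4 and 126 reads (-4.93, -6.99 to -3.70). Each of the 6 members exceeded both clock genes in log2 ratio with an interval that excluded 0. The closest was her8a, which exceeded her1 by 1.65 (0.59 to 2.64). The gene listed as her2 was the most read of the further genes, with 1059 and 3943 reads (log2 ratio -2.01), followed by her15.1 with 206 and 711 reads (-1.90).

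At the lower end, her11 had 0 GFP+ and 14 GFP- reads, at least 5.05-fold lower against a floor of 3 reads in the GFP+ library, and with her11 at this bound the median of the 18 genes stayed at -2.0. Among the genes called lower, the ratio nearest to 0 was that of bhlhe40 (48 and 102 reads, -1.19). The 3 genes called neither, named after their values were seen, were her8.2 (7 and 13 reads), her13 (70 and 73 reads) and bhlhe41 (58 and 39 reads). The 5 her4 copies were all called lower, from -3.06 to -1.99, but their near-identical sequence makes the split of reads between them uncertain. The same holds for her15.1 and her15.2. Listed transcripts of her4.2 and her4.3 also overlap on the chromosome. Such copies are not independent entries in the count of genes called lower or in the median. Of all reads on the 7 members and these 18 genes, the members took 74.0% in GFP+ cells (72.9% to 75%) and 52.0% in GFP- cells (51.1% to 52.8%). The odds ratio of the summed members over the summed other genes was 2.63 (2.46 to 2.80). These sums weigh the best-read genes most. Of the other genes, her2 held 1059 of 1778 GFP+ reads and 3943 of 6809 GFP- reads, and hey1 held 52.8% and 46.5% of the member reads.

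In the Notch pathway, the receptors were measured in the same way. notch3 had 2858 GFP+ and 2950 GFP- reads (log2 ratio -0.16), notch1a had 612 and 1063 (-0.91, just short of the threshold, like her6) over 3 gene models, and notch2 had 8 and 5 (0.51). None of these 3 was called in either direction, against 16.2% of all genes called higher and 17.6% lower. notch1b, with 2 and 0 reads, was not tested. The ligands went in both directions, with 1 of 7 called higher and 3 lower, beside the same shares of all genes. dll4, the Delta-like ligand of arterial endothelium, was 32.8-fold higher in GFP+ cells (2285 and 64 reads, log2 ratio 5.03, 95% interval 4.69 to 5.43) and was the ligand called higher. Called lower were dla (66 and 324 reads, -2.40), dld (249 and 958 reads, -2.06) and dlb (378 and 1033 reads, -1.56), which are Delta genes of the nervous system and, for dld, of the presomitic mesoderm. dlc (582 and 343 reads, 0.65) and jag1b (574 and 617 reads, -0.22) were called neither.

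Of 16 genes that transduce or modulate the Notch signal, 1 was called higher and 1 lower, against 16.2% and 17.6% of all genes. Their median log2 ratio was -0.036. The gene called higher was mfng, a Fringe glycosyltransferase that modifies the receptor, with 72 GFP+ and 3 GFP- reads (ratio 19.1, 95% interval 7.29 to 110). The related lfng was lower (665 and 1295 reads, log2 ratio -1.07), although under the scaling alternatives it no longer passed the threshold. The Notch feedback gene nrarpa, a Notch target like many hes, her and hey genes, was read deeply in both libraries (4323 and 4487 reads, -0.17). The gene mib1, whose product ubiquitinates Delta, had 656 and 882 reads (-0.54). nrarpb (536 and 258 reads) and adam10a, a receptor-cleaving protease gene (509 and 239 reads), were at 0.94 and 0.98 and, like hey2, passed the threshold under the scaling alternatives.

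Of 10 genes in a list of Groucho and other corepressor genes, 0 were called higher and 1 lower, against 16.2% and 17.6% of all genes. Their median log2 ratio was -0.49. A further one, tle2b, had 4 GFP+ and 0 GFP- reads and was not tested. The gene called lower was the Groucho gene tle2c, with 4 and 33 reads (log2 ratio -3.01, 95% interval -5.12 to -1.67). The best-read corepressor gene was hdac1, a histone deacetylase, with 1768 and 2715 reads (-0.73), followed by tle2a (467 and 813 reads, -0.91), sin3aa (629 and 534 reads, 0.12) and tle3a (380 and 540 reads, -0.62).

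**Figure D4:**
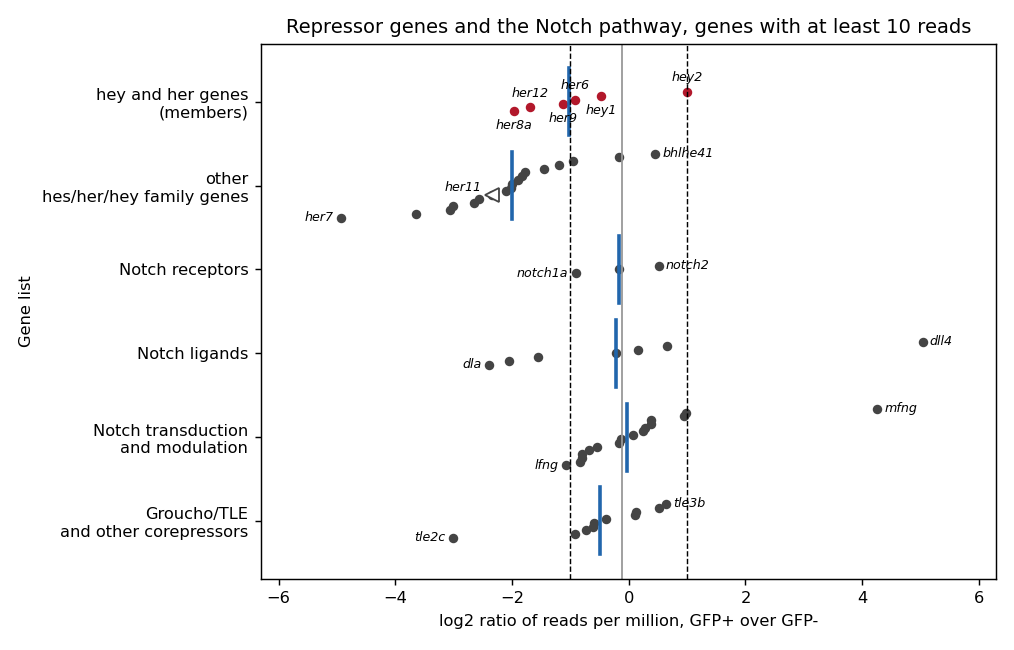
Log2 ratio of RPM, GFP+ over GFP-, for the repressor genes (red) and 5 gene lists (dark grey), with the median of each row as a blue bar, the median of all genes as a grey line and 2-fold differences as dashed lines. The other family genes centre on -2.0, with her11 drawn as an open triangle at the ratio for 3 GFP+ reads. The receptors and transduction genes centre near 0, and dll4 (5.03) and mfng (4.26) lie far to the right.

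Markers of other cell types were mostly lower in GFP+ cells too, where 17.6% of all genes were called lower. Called lower were 5 of 6 notochord and floor plate markers and 3 of 4 neural crest and arch markers. Of 4 heart markers 3 were called lower, and gata4 (13 and 2 reads) was called higher. The 7 neural progenitor and neuron markers summed to 407 RPM in the GFP+ library and 1287 RPM in the other (6 called lower, median log2 ratio -1.13). The 7 skeletal muscle and somite markers summed to 581 and 2189 RPM (7 called lower, median -2.52), and the 6 epidermis markers to 470 and 1869 RPM (6 called lower, median -1.91). In the muscle and somite sums, actc1b alone gave 546 and 1925 RPM, and tnnt3a was near 0 in both libraries (0 and 1 read). The sums show that such RNA was also present in the GFP+ library, for muscle mostly as actc1b. The part of these cell types in the repressor counts was not tested.

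By level in the 2 libraries, the gene nearest to each repressor was found among 15529 genes by distance in log2 RPKM. Nearest to hey2 was pitrm1 (RPKM 49.5 and 25.8), and nearest to hey1 was edf1 (177 and 243). For her6 it was arf5 (133 and 246), for her9 hmgb1b (167 and 337), for her12 eps8l1b (2.52 and 8.60) and for her8a plxnb2a.2 (0.99 and 4.07). These are likenesses over 2 libraries only.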

How the data were processed

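From embryos of the line Tg(fli1a:EGFP)y1, sorted GFP+ and GFP- cells gave 1 TruSeq RNA library each. The authors deposited, for each Ensembl transcript of Zv9, the count of uniquely mapped reads. They also deposited the RPKM of each transcript, which is the count per kilobase and per 1000000 counted reads, and the percent of its length covered by reads. The aligner and counter are not given in the sources used here, nor is the use of strand. From these files, counts were summed by gene over 27808 transcripts, scaled to the library totals of 4441335 (GFP+) and 4105672 (GFP-) and compared as a log2 ratio with 0.5 reads added. Intervals are exact 95% Clopper-Pearson or Poisson intervals and cover counting error only. Genes were called with a log2 ratio above 1 or under -1 and no fewer than 10 reads in all. With 1 library per group no test of the conditions was made.

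Gene symbols came from Ensembl gene names, matched by gene id, or from RefSeq gene tables (GRCz12tu, no coordinates used), matched by protein accession. A symbol assigned by hand, where given, came first. Symbols were found for 17982 of 22017 genes. Genes besides the members were named by a rule: in family and pathway lists of more than 6 measured genes, the called genes with the highest and lowest ratio and up to 4 further ones with most reads, and in shorter lists all of them, together with kdrl and the gene nearest to each member. Genes named beyond it (her7, the her4 copies, her15.2, adam10a, nrarpb, mib1, the genes called neither and single markers) were chosen after their values were seen. A gene of the lists is not reported here and was left out of the list counts. The members and lists were chosen with earlier results of these data known.

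The alternatives were TMM scaling (edgeR 4.0.16), DESeq2 1.42.0 size factors, totals without hemoglobin reads, 5 reads added, the most-read transcript, no minimum or at least 50 reads, Fisher's exact test with an adjusted p under 0.001, the exact test of edgeR at a fixed biological coefficient of variation (0.4, assumed), and, chosen after seeing the data, the ratio of deposited RPKM. Scripts were tested on simulated data and run with R 4.3.3, Python 3.11.15, SciPy 1.17.1, NumPy 2.4.6, pandas 2.3.3 and matplotlib 3.10.9.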

Additional observations from a re-analysis of the deposited data

How the results depend on the processing

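No member changed the sign of its log2 ratio under the scaling, pseudocount, transcript and RPKM alternatives. TMM scaling moved the median of all genes up by 0.10, size factors by 0.11 and totals without hemoglobin reads by 0.09. Under these, hey1 was at -0.37, -0.36 and -0.38 and her9 under size factors at -1.01. hey2, on the threshold, gave 1 member called higher in place of 0 under all 3 and under the deposited RPKM, and under the 3 scalings the transduction list had 3 genes higher (also with no minimum of reads) and 0 lower. With no minimum, 4710 genes were higher and 4953 lower, the receptors and corepressors had 1 higher each, and 4 members were lower, heyl (0 and 2 reads) among them. At least 50 reads gave 1396 higher and 1610 lower (2 members, without her12, and 0 corepressors lower), Fisher's exact test 1491 and 1627, and edgeR's exact test 341 and 94, against 2469 and 2686. Under edgeR's test the genes called lower were 0 members (lowest adjusted p 0.456, her8a), 2 other family genes, 0 ligands, 0 transduction genes and 0 corepressors. That test rests on an assumed spread. No paired analysis was possible because GFP+ and GFP- cells gave a single library each, and no replicate could be left out. At 14 and 12 reads in GFP+ cells, depth limits her8a and her12.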
